A study of Mus musculus with 6 samples.

Results

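The endothelin system of the mouse retina was followed here through its 3 ligand genes Edn1, Edn2 and Edn3, its receptor genes Ednra and Ednrb, and the converting enzyme genes Ece1 and Ece2. All probe sets whose only gene symbol in the platform annotation was one of these names were taken. This gave 14 of the 45037 probe sets on the array, for 6 of the 7 genes, out of 18193 genes with a probe set of their own. Ednra is not analysed here. Retinal RNA was measured on 6 single-colour Affymetrix arrays, 3 of prCAD knockout mice and 3 of wild type 129 mice, all about 4 weeks old. The knockout mice lack photoreceptor cadherin, the product of Cdhr1, and the submitters call them a model for retinal degeneration. Each array held the pooled retinas of 3 mice, so every spread given below is a spread between pools, which are called pools 1 to 3 after the replicate numbers in the titles. The sources used here do not give the strain of the knockout mice, so a difference due to strain and one due to the knockout cannot be told apart. Whether the mutation is a full or partial deletion is not stated in the labels either.

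Endothelins are short peptides, held folded by disulfide bridges, that were first known as constrictors of blood vessels. They are made as long precursors, which furin-type proteases trim to big endothelins, and the membrane metalloproteases ECE1 and ECE2 then cut these to the active peptides. The peptides act on the G protein coupled receptors EDNRA, found mainly on vascular muscle, and EDNRB, which Müller cells, astrocytes, endothelium and melanocyte precursors carry. In the mouse retina, Edn2 is known as a gene that injured photoreceptors switch on, with EDNRB on glia as a candidate receiver. The comparison asks whether the knockout retina differs from wild type in the ligand, in the receiver or in the enzymes between them.

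Of these genes, Edn2 stood 3.51 log2 units higher in mutant retina, an 11.4-fold difference, while the other 13 probe sets differed by between -0.05 and 0.34. Among 18193 genes, each taken at its brightest probe set, no other had as large an increase. Over all 45037 probe sets 1 had a larger one. None of the 14 probe sets passed limma's adjusted p of 0.05 over the whole table, Edn2 included, where 0.0111% of all probe sets did. At an unadjusted p under 0.05 there were 2 of 14, those of Edn2 and 1 of Edn3, against 3.02% of all probe sets. The mutant arrays all lay above the wild type arrays at 3 of the 14 probe sets, 1 each of Edn2, Edn3 and Ednrb, against 4.73% of all probe sets. At 0 of the 14 did they all lie below, against 3.07%. Probe sets of 1 gene share its transcripts, so these counts are of fewer than 14 independent measurements.

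**Figure D1:**
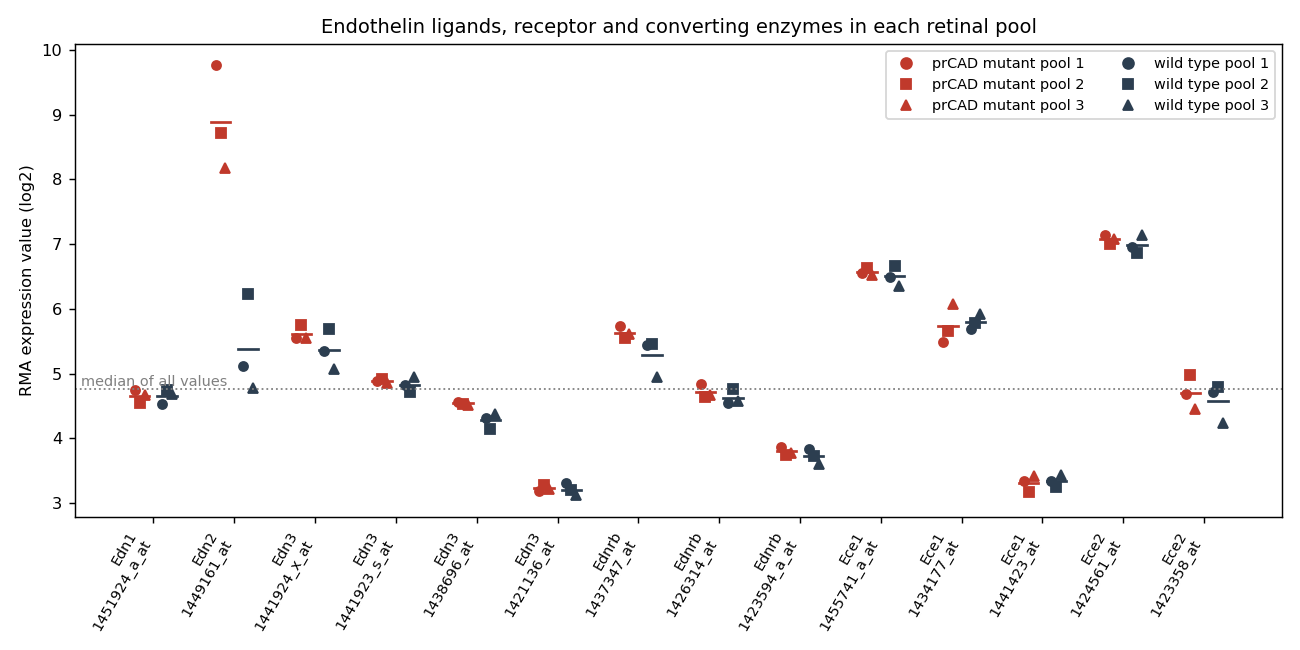
RMA expression values on the log2 scale (vertical axis) of the 14 probe sets in the 3 prCAD mutant pools (red, left in each pair) and the 3 wild type pools (dark, right), with bars at group means and a dotted line at the median of all values on the arrays, 4.76. The Edn2 mutant pools sit between 8.18 and 9.76, all above the wild type pools at 4.78 to 6.23, and heights of different probe sets cannot be compared as transcript levels.

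Cdhr1, the gene that the knockout targets, read 3.94, 4.20 and 4.34 in mutant and 11.32, 11.36 and 10.98 in wild type pools, a difference of -7.06. The retinal label held in every array. Sag, which encodes rod arrestin, read between 13.1 and 13.4 in the 6 arrays, and 8 measured rod genes averaged 11.3 to 11.5 in mutant and 11.3 to 11.6 in wild type arrays. Array medians lay between 4.74 and 4.79, and correlations between arrays over all probe sets were 0.969 or more. Wild type pool 3 stood furthest from the others, with a mean correlation of 0.978. The differences of the brightest Edn3 and Ednrb probe sets, and list medians that moved by over 1.5 times, are also given without it.

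The promoters of the 3 ligand genes are shown first, on the strand of the gene. Each is given as the 250 bases before and 50 after the RefSeq start site in build GRCm38.p6. The Edn2 window lies at chr4:120160956-120161255 (plus strand), that of Edn1 at chr13:42301226-42301525 (plus strand) and that of Edn3 at chr2:174760369-174760668 (plus strand). Capitals mark matches, on either strand, to short motifs that were searched by letters. The core of a hypoxia response element was searched as ACGTG, or with another first letter as GCGTG. Sites of STAT factors were searched as TTCNNNGAA, and those of AP-1 as TGAGTCA. The photoreceptor homeobox factor CRX was searched as TAATCC, or in a variant as TAAGCC. Sites of GATA factors were searched as AGATAA, or with another first letter as TGATAA, and a TATA box as TATAAA. Matches of different motifs could overlap, and in these windows none did.
Edn2: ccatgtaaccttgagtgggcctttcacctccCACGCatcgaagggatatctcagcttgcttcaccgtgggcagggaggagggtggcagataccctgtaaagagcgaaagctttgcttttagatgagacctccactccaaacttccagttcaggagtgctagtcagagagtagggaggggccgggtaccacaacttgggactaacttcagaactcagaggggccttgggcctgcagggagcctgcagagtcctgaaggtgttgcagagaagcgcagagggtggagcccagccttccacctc
Edn1: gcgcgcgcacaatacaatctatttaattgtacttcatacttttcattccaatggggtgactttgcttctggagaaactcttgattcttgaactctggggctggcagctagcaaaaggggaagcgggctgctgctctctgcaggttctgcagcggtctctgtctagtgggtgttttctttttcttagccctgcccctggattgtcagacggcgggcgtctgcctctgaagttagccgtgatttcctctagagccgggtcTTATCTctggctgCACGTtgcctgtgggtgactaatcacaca
Edn3: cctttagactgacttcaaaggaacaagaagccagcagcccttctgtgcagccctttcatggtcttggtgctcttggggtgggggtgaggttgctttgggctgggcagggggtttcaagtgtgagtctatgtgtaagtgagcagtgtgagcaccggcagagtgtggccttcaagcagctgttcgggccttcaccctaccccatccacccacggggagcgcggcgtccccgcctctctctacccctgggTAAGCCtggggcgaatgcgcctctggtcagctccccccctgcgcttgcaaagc

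In the Edn2 window the single match was to the hypoxia core, GCGTG on the minus strand (so printed as CACGC), with its first base at position -219 from the start site. The same core is common, since 43.8% of 32851 promoter windows of this length hold ACGTG or GCGTG. The Edn1 window held ACGTG on the minus strand at position 22, and AGATAA on the minus strand at position 9, GATA letters that occur with TGATAA in 18.6% of windows. In the Edn3 window TAAGCC lay across the start site from position -3, and 15.8% of windows hold this or TAATCC. No window of the 3 held the STAT, AP-1 or TATA letters, which 8.30%, 5.20% and 13.6% of all windows hold. A match describes letters only, and its absence says nothing of sites outside the window.

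Edn2, the endothelin first described in the mouse as vasoactive intestinal contractor, was read by the probe set 1449161_at. It read 9.76, 8.72 and 8.18 in the mutant arrays of pools 1, 2 and 3, and 5.13, 6.23 and 4.78 in the wild type arrays of pools 1, 2 and 3, on the log2 scale. All 3 mutant pools were above all 3 wild type pools, and the lowest mutant pool was 3.85-fold above the highest wild type pool. Converted from log2, the mutant pools read 867, 421 and 290 intensity units, and the wild type pools 34.9, 75.2 and 27.4.

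The Edn2 group means were 8.89 ± 0.80 in mutant and 5.38 ± 0.76 in wild type retina (SD, n = 3 each). The difference was 3.51 (SE 0.49, 95% interval 2.35 to 4.66), or 11.4-fold with an interval of 5.11 to 25.3 (limma, unadjusted p = 0.000177, adjusted p = 0.297). By p, Edn2 ranked 26 of 45037 probe sets. Its spread within groups, an SD of 0.78, was larger than that of 99.0% of probe sets, whose median was 0.15. The pools thus differed among themselves in Edn2 by 1.58 in mutant and by 1.46 in wild type retina, less than the 1.95 that separated the groups. Between pools of the same number the differences were 4.63, 2.48 and 3.40, higher in the mutant in each. The wild type level of pool 3 was close to the median of all probe sets, 4.76, so background limits how large the fold can read. In RNA of whole retina, fewer cells of a type and less RNA per cell cannot be told apart.

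The Edn2 change was also set against that of each other probe set of the group, as a difference within each array. The mutant arrays lay above the wild type arrays in 13 of 13 such comparisons, with the Edn2 change larger by 3.16 to 3.56. Each gave p = 0.1 in a two-sided exact permutation test, also 0.1 after Benjamini-Hochberg adjustment over the 13. That is the smallest p that 3 arrays against 3 allow, so the design cannot take this test below 0.05. All 13 comparisons share the same Edn2 values, set against probe sets that differed little. The 13 of 13 thus repeats the Edn2 separation and adds no support to it.

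Edn1, the ligand made by endothelium, did not separate the groups. Its only probe set read 4.75, 4.55 and 4.67 in mutant and 4.53, 4.75 and 4.69 in wild type pools, and the 2 sets of values overlap throughout. The difference was 0.004 (SE 0.10, 95% interval -0.24 to 0.25, adjusted p = 1.00 by limma). No array exceeded the overall median of 4.76, so this interval describes the array value and does not bound a change in transcript level. The 11 genes of endothelial cells had a median difference of 0.01 (-0.03 without wild type pool 3), with 2 wholly higher and 2 wholly lower in mutant arrays, where 5.89% of all 18193 genes at their brightest probe set lay wholly higher and 2.88% wholly lower. Vwf, which encodes von Willebrand factor, was 0.61 higher (SE 0.16) and Cdh5, the endothelial cadherin, differed by -0.25 (SE 0.11), both with an adjusted p of 1.00 by limma. Of the 11 genes 6 averaged below the overall median, Vwf and Cdh5 among them.

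Edn3, the ligand that neural crest and melanocyte precursors need, had 4 probe sets, and the groups lay apart at 1 of them. At 1438696_at it read 4.56, 4.53 and 4.52 in mutant and 4.31, 4.14 and 4.38 in wild type pools. The groups do not overlap there, and the difference was 0.26 (SE 0.10, 95% interval 0.03 to 0.49, unadjusted p = 0.0294, adjusted p = 1.00 by limma). All 6 values lie below 4.76, the overall median. The brightest Edn3 probe set, 1441924_x_at, of a type that can cross-hybridise, read 5.55, 5.74 and 5.55 in mutant and 5.35, 5.69 and 5.07 in wild type pools. These overlap, at a difference of 0.25 (SE 0.16), which was 0.10 without wild type pool 3. The remaining probe sets of Edn3 differed by 0.05 and 0.02, with intervals of -0.17 to 0.28 and -0.20 to 0.23.

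Among receptors, Ednrb had 3 probe sets, of which the brightest, 1437347_at, was higher in mutant retina. It read 5.73, 5.54 and 5.61 in mutant pools, against 5.45, 5.46 and 4.94 in wild type pools. The groups did not overlap, but the margin was only 0.08, and wild type pool 3 lay far below the other wild type pools. The difference was 0.34 (SE 0.16, 95% interval -0.03 to 0.71, adjusted p = 1.00 by limma). It was 0.17 (SE 0.10) without wild type pool 3. With the replicate number as a block the interval was 0.04 to 0.65 (unadjusted p = 0.0321, adjusted p = 0.629 by limma), and pools of the same number differed by 0.29, 0.08 and 0.66. The block thus took the count at an unadjusted p under 0.05 to 3 of 14 probe sets, where 7.60% of all probe sets had one. The other Ednrb probe sets differed by 0.09 (95% interval -0.16 to 0.34) and 0.07 (95% interval -0.15 to 0.30), and their groups overlapped. They exceeded the overall median of 4.76 in 2 and 0 arrays, so they say little of a change in transcript level. Of the 3 probe sets, the highest upper bound in the fit on group alone corresponds to a 1.64-fold higher array value.

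Cells that carry EDNRB were checked through their markers. The 10 genes of Müller glia had a median difference of 0.13 (0.07 without wild type pool 3), and their mean level ran from 8.56 to 8.75 in mutant and from 8.38 to 8.71 in wild type arrays, so the ranges overlap. Kcnj10, the inward rectifier potassium channel of Müller cells, differed by 0.25 (SE 0.19). The 5 measured astrocyte genes had a median difference of 0.07. Gfap, the glial filament gene, was 1.60 higher (SE 0.32, adjusted p = 0.791 by limma) and Aldh1l1, a folate enzyme, 0.47 higher (SE 0.16), while Slc1a2, S100b and Pdgfra differed by 0.07, -0.08 and -0.12. The mean level of the 5 was 6.39 to 6.55 in mutant and 5.92 to 6.23 in wild type arrays. Gfap, with the largest difference of the 5, added most to that gap and is also counted among the glial injury genes below. Of 11 melanocyte and neural crest genes, 5 lay wholly higher and 0 wholly lower in mutant arrays, against 5.89% and 2.88% of all genes. Their median difference was 0.12. The wholly higher ones included the pigment cell genes Dct (1.00 higher, SE 0.28), Pmel (0.90, SE 0.26), Mlana (0.88, SE 0.21) and Tyr (0.22, SE 0.09). The other wholly higher gene was Sox10, at 0.12 (SE 0.09). The pigment cell gene Slc45a2 overlapped between groups, at 0.16 (SE 0.10). The remaining genes overlapped too, with Mitf at 0.11, Pax3 at 0.12, Ret at -0.03, Kit at -0.08 and Kitl at -0.09. Sox10, Slc45a2 and these remaining genes were named after their values were seen. Of 9 pigment epithelium genes 7 lay wholly higher, with mean levels of 6.06 to 6.37 in mutant and 4.78 to 5.65 in wild type arrays (5.50 to 5.65 without wild type pool 3). Which pigmented cells the pigment cell genes came from was not tested. Nor was the part of pigment tissue in the Ednrb and Edn3 values.

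The converting enzymes showed no separation at any of their probe sets. Ece1, the main enzyme that cuts big endothelin at the cell surface, read 6.55, 6.64 and 6.53 in mutant and 6.49, 6.67 and 6.35 in wild type pools at its brightest probe set. Those values overlap, at a difference of 0.07 (SE 0.11, 95% interval -0.18 to 0.32). At its other probe sets Ece1 differed by -0.05 (95% interval -0.44 to 0.33) and -0.03 (95% interval -0.28 to 0.21). No array exceeded the overall median of 4.76 at the last of these. Ece2, a related enzyme that works at acid pH inside the cell, read 7.14, 7.004 and 7.08 in mutant and 6.96, 6.86 and 7.14 in wild type pools. These overlap too, at a difference of 0.09 (SE 0.10, 95% interval -0.16 to 0.33). The dimmer Ece2 probe set differed by 0.12 (95% interval -0.33 to 0.58), and only 2 arrays exceeded the overall median there. RefSeq lists a gene Eef1akmt4 beside Ece2 and a transcript that runs through both, so which transcripts the Ece2 probe sets read is not settled here. Each of the 5 converting enzyme probe sets had an adjusted p of 1.00 by limma.

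**Figure D2:**
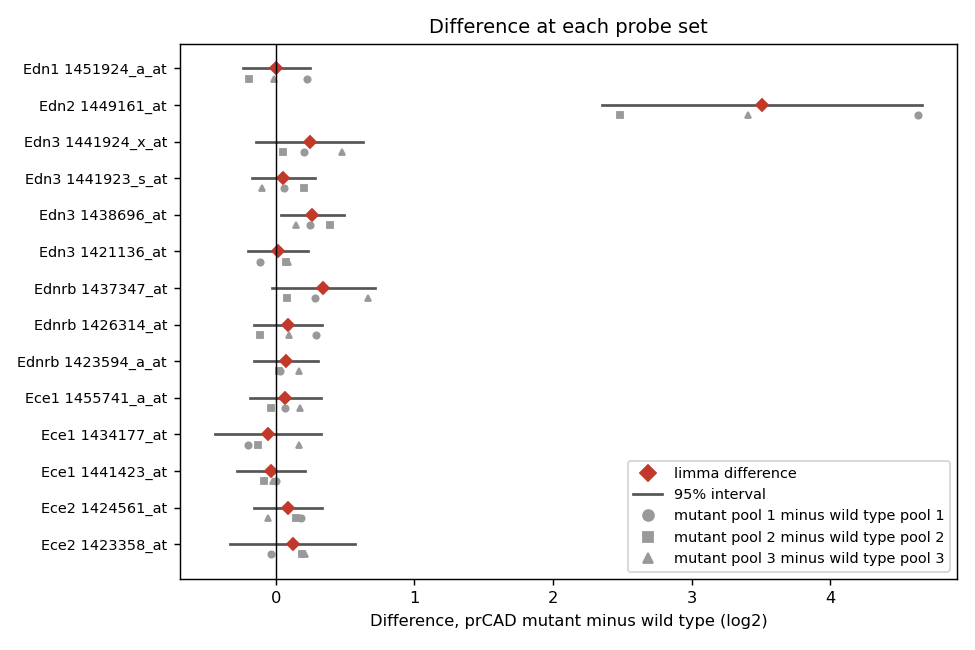
Difference of prCAD mutant minus wild type on the log2 scale (horizontal axis) at each of the 14 probe sets, with the limma estimate (red diamond), its 95% interval (line) and the 3 differences between pools of the same number (grey symbols). Edn2 lies at 3.51 with an interval of 2.35 to 4.66, and the other intervals lie between -0.44 and 0.71.

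Further steps of the pathway were followed through gene lists, in which each gene is taken at its brightest probe set. Over all 18193 genes the median difference was 0.02 (-0.002 without wild type pool 3). By limma 0.0165% of genes passed the adjusted threshold and 3.42% had an unadjusted p under 0.05. Of all genes 5.89% lay wholly higher and 2.88% wholly lower in mutant arrays, the shares beside which the counts of each list stand. No gene of the 4 lists that follow passed the adjusted threshold in either direction.

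Proteases that mature or break down endothelins differed little in array value. Of the 10 genes 6 averaged below the overall median of 4.76, Kel and Mme among them. Such values do not bound a change in transcript level. The median of 10 genes was 0.09, all differences lay between -0.10 and 0.20, and 1 gene was wholly higher and 0 wholly lower in mutant arrays. That gene was Kel, whose human protein on red cells cuts big endothelin 3, at 0.12 (SE 0.09). Mme, which encodes neprilysin, an enzyme that degrades endothelins, differed by 0.20 (SE 0.14). Ctsa, a lysosomal carboxypeptidase that inactivates endothelin 1, differed by 0.16 (SE 0.11), and Mmp2, a matrix metalloprotease, by 0.18 (SE 0.17). Unadjusted p was under 0.05 for 0 of the 10 by limma.

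In receptor signalling, 18 measured genes of G proteins, phospholipases and their regulators had a median difference of 0.03 (-0.01 without wild type pool 3). Of these, 3 lay wholly higher and 1 wholly lower in mutant arrays. Rgs4, a regulator that shortens Gq and Gi signalling, read 6.01, 6.14 and 6.04 in mutant and 6.46, 6.56 and 6.77 in wild type pools. The mutant values were all below the wild type ones, by a mean of -0.53 (SE 0.11, adjusted p = 0.883 by limma). Of the phospholipase C beta genes, which endothelin receptors switch on through Gq, Plcb4 was 0.28 higher (SE 0.11), Plcb2 0.21 higher (SE 0.08) and Plcb3 0.19 higher (SE 0.13). Plcb1, named after its value was seen, differed by -0.16 (SE 0.17), and all 4 had an adjusted p of 1.00 by limma. Plcb4 and Plcb2 were among the 3 genes wholly higher in mutant arrays and were the 2 higher ones with an unadjusted p under 0.05, beside Rgs4 as the 1 lower.

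Hypoxia is a known inducer of endothelin genes. The 14 hypoxia factors and targets had a median difference of -0.05, with 2 wholly higher and 1 wholly lower in mutant arrays. Bnip3, a mitophagy gene and hypoxia target, read 9.24, 9.25 and 9.17 in mutant and 9.80, 9.83 and 9.61 in wild type pools. It was lower in each mutant pool, by a mean of -0.53 (SE 0.10, adjusted p = 0.589 by limma). Adm, which encodes the vasodilator peptide adrenomedullin, was 0.26 higher (SE 0.10) and Epas1, which encodes hypoxia inducible factor 2 alpha, was 0.29 higher (SE 0.11). Ldha, a glycolysis enzyme, differed by -0.17 (SE 0.11), and these 3 had an adjusted p of 1.00 by limma. Of the 14 genes 5 had higher and 9 lower values in the mutant on average, and unadjusted p was under 0.05 for 2 higher and 1 lower.

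Other vasoactive systems gave a median difference of 0.07 over 20 genes, with 4 wholly higher and 1 wholly lower in mutant arrays and 0 at an unadjusted p under 0.05 by limma. Agtr1a, the type 1 angiotensin receptor, was 0.35 higher (SE 0.18), mainly through mutant pool 1, which read 4.73 against 4.16 and 4.07 in the other mutant pools. Nos1, the neuronal nitric oxide synthase, was 0.18 higher (SE 0.10). Npr3, the clearance receptor of natriuretic peptides, was 0.17 higher (SE 0.09), and Nppb, the brain natriuretic peptide gene, was 0.15 higher (SE 0.09). All 4 of these lay wholly higher in the mutant arrays. Of the 20 genes 12 averaged below the overall median of 4.76, Agtr1a, Npr3 and Nppb among them. The 10 mural cell genes, which mark the pericytes and vascular muscle that endothelins contract, had a median difference of 0.09 (0.04 without wild type pool 3), with 0 wholly higher and 1 wholly lower. Acta2, smooth muscle actin, differed by 0.55 (SE 0.23), and the overlapping groups averaged 7.49 in mutant and 6.94 in wild type retina.

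**Figure D3:**
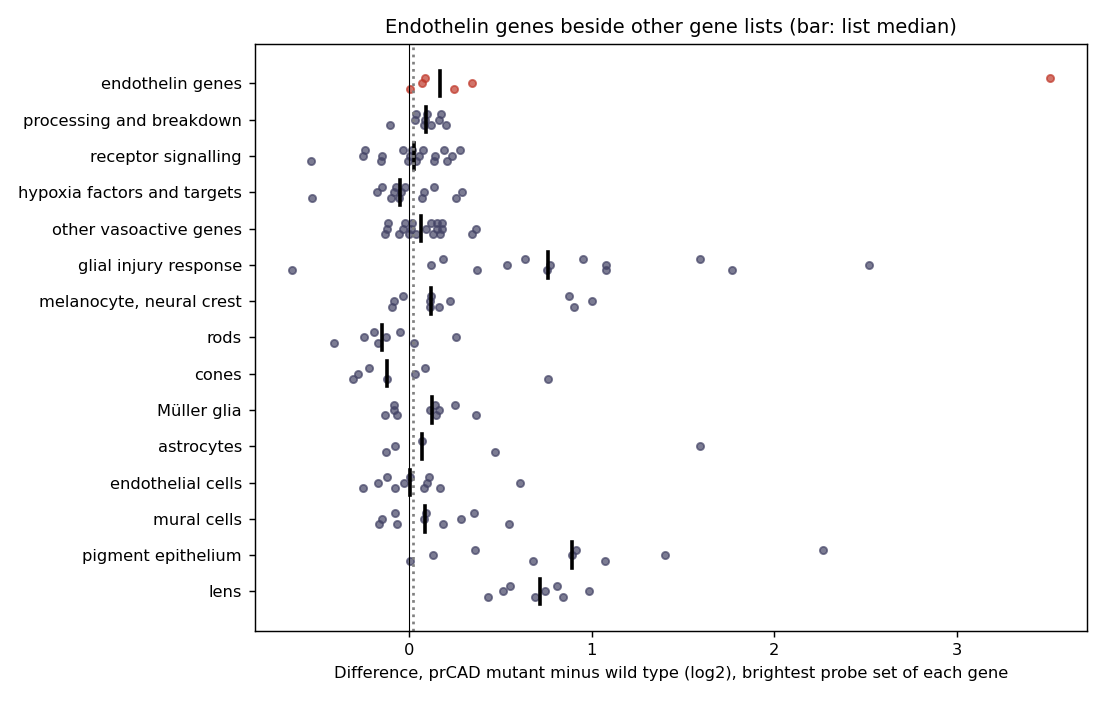
Difference of prCAD mutant minus wild type on the log2 scale (horizontal axis) for single genes at their brightest probe set (points) in the endothelin group and 14 other lists, with a bar at each list's median and a dotted line at the median of all genes, 0.02. The glial injury response, at a median of 0.76, the pigment epithelium, at 0.90, and the lens, at 0.72, lie right of the pathway lists, whose medians run from -0.05 to 0.09, but without wild type pool 3 the lens median was 0.23. The microglia, ganglion, amacrine and bipolar cell lists are not drawn, and the ganglion cell median was -0.36.

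Markers of some other cells differed beside Edn2 and the glial genes. Amacrine and rod genes had median differences of -0.004 and -0.15. Those of bipolar and cone genes were -0.10 and -0.12 (-0.05 and -0.24 without wild type pool 3). The 7 measured ganglion cell genes had a median difference of -0.36 (-0.57 without wild type pool 3), with negative estimates in all 7 and 2 wholly lower, and averaged 6.72 to 7.02 in mutant and 7.17 to 7.40 in wild type arrays. Rbpms, whose protein binds RNA, differed by -0.77 (SE 0.12, adjusted p = 0.463 by limma). Of 8 microglia genes 4 lay wholly higher and 0 wholly lower, against 5.89% and 2.88% of all genes. Their median difference was 0.15, and their mean level was 4.78 to 4.92 in mutant and 4.55 to 4.72 in wild type arrays. The complement genes C1qa and C1qc differed by 0.55 (SE 0.13) and 0.47 (SE 0.10), and Csf1r, a growth factor receptor of microglia, by 0.35 (SE 0.12). The remaining microglia genes, Cx3cr1, Itgam, Tmem119, Aif1 and P2ry12, differed by 0.17, 0.14, 0.09, 0.04 and -0.01. The 8 lens genes had 0 wholly higher in mutant arrays, and pools of the same number differed by medians of 0.01, 0.18 and 1.75. The part of these cells in the Edn2 and glial values was not tested.

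Glial genes known to respond to photoreceptor injury had a median difference of 0.76 over 14 genes. Of these 8 lay wholly higher and 0 wholly lower, against 5.89% and 2.88% of all genes. By limma 0 passed the adjusted threshold over all probe sets, and 9 had an unadjusted p under 0.05, all of them higher. The smallest p-values were those of Osmr, Cebpd, Bcl3 and Socs3, with Osmr at 1.77 (SE 0.20) and Bcl3, a regulator of NF-kappaB, at 0.96 (SE 0.13). Lif, a cytokine that Müller cells release, was 0.37 higher (SE 0.15) and Fgf2, a survival factor for photoreceptors, 0.54 higher (SE 0.42), both given for their known place beside Edn2 and after their values were seen. Fgf2 was high in mutant pool 3 alone, at 4.89 against 3.28 in each of the other mutant pools. The Edn2 value was the lowest of the mutant ones in that pool. In all other arrays Fgf2 read 3.12 to 3.43, far below the overall median of 4.76. Whether Fgf2 follows Edn2 pool by pool can therefore not be read from this probe set. Lif lay below the overall median in every array. Of the 14 genes 13 had higher and 1 lower values in the mutant on average. The lower one was Egr1, at -0.64 (SE 0.50), with overlapping groups. Stat3, Lcn2, Fosl1 and Nes overlapped between groups too, at 1.08, 0.75, 0.19 and 0.12. Egr1 and these genes were also named after their values were seen. Of the 14 glial genes 6 were highest in mutant pool 1, as Edn2 was, which is 42.9% beside 45.7% of all genes.

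The genes whose values over the 6 arrays were most like those of Edn2 were sought among 12420 other genes with at least 1 array above the overall median. The measure was Pearson's r, given as a description over 6 arrays in 2 groups, so that any gene that differs between the groups scores high. There were 64 genes with r above 0.95. The closest was Cebpd, which encodes the transcription factor C/EBP delta, at r = 0.987. It read 8.07, 7.72 and 7.46 in mutant and 5.33, 5.82 and 4.56 in wild type pools. The pools fall in the same order as for Edn2 within each group, with wild type pool 2 the highest of the wild type arrays. Cebpd was 2.52 higher in mutant retina (SE 0.32, adjusted p = 0.217 by limma, 0.0379 with the replicate block), the second largest increase among all genes at their brightest probe set.

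After Cebpd came Pbxip1, which encodes a partner of PBX homeobox proteins (r = 0.986, 1.02 higher), and Nav1, a microtubule protein of neurons (r = 0.982, 0.77 higher). Kcnj13, a potassium channel gene of the pigment epithelium, had r = 0.982 and was 0.60 higher. Dcps, the scavenger decapping enzyme, had r = 0.981 and was 0.81 higher. Next were Chl1, a neural adhesion molecule (r = 0.977, 0.60 higher), Nme2, a nucleoside diphosphate kinase (r = 0.976, 0.48 higher), and Plekhb1, a membrane protein found in photoreceptors (r = 0.975, 0.36 higher). All 8 lay wholly higher in the mutant arrays, and none passed the adjusted threshold over all probe sets by limma (lowest adjusted p 0.217). At their probe sets the other endothelin genes had r between -0.37 (Ece1) and 0.81 (Ednrb).

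**Figure D4:**
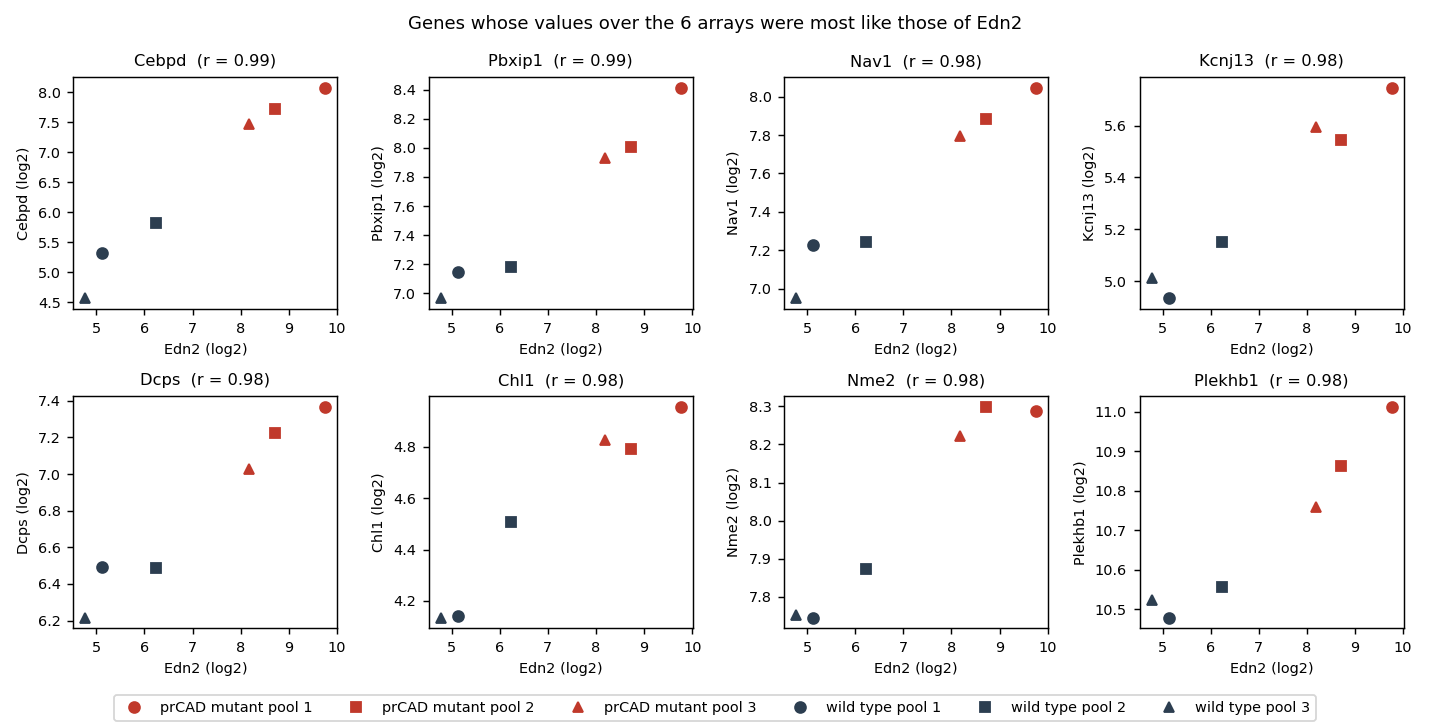
Log2 values of the 8 genes most like Edn2 (vertical axes) against those of Edn2 (horizontal axes), with 1 point per array for the prCAD mutant (red) and wild type (dark) pools. Cebpd, at r = 0.987, keeps the order of Edn2 in all 6 arrays, and in every panel the mutant points lie above the wild type points.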

How the data were processed

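The values are log2 expression values, which per the submitters' processing notes the authors made with RMA of an unnamed version. RMA corrects background and equalises the distributions of the arrays, so differences in total signal are removed. Of 45101 probe sets, 64 manufacturer controls were left out. The platform annotation gives 1 gene symbol for 34945 probe sets and several for 932, and 9160 are not named here. Promoters are those of RefSeq on GRCm38.p6, found for all 7 genes.

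Groups followed the sample titles. Limma (3.58.1, R 4.3.3) was fitted on group alone to all 45037 probe sets, with Benjamini-Hochberg adjustment and a threshold of 0.05. Steps were tested on simulated data. The genes, lists, motifs and tests were chosen with earlier results of these data known. Of each list the text names up to 4 genes with the smallest p, and others as said. Of 179 measured list genes, some are in more than 1 list. Alternatives were other normalizations, filters, variance models, array weights and left-out arrays.

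Both groups carry replicate numbers 1 to 3. After subtraction of group means, arrays that share a number correlated at 0.477, 0.469 and 0.563. The labels do not explain the numbers, so they were treated as pairs on that ground alone. Pairs were used for the differences between pools of the same number and for the alternative fit with a block. The main fit, on group alone, leaves them out. The number of arrays limits the precision of every value. Whether pools are of separate litters is not stated, so p-values measure only the spread between these pools.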

Additional observations from a re-analysis of the deposited data

How the results depend on the processing

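Under 17 alternatives Edn2 was 3.07 to 3.93 higher in mutant retina, and it passed the adjusted threshold in 0 of them (adjusted p from 0.0628 with array weights to 1.00 when wild type replicate 1 was left out). The Edn2 difference of 3.51 with the replicate block had an adjusted p of 0.0717. Leaving out each array in turn gave 3.07 to 3.93, and without both arrays of replicate 3 the difference was 3.56 (adjusted p = 0.113). It passed, at 3.51, only with an unadjusted p under 0.05, where 2 endothelin probe sets were higher and 0 lower. The other 13 probe sets passed in 0 of 197 fits (lowest adjusted p 0.329), and 7 of them, with differences near 0, changed sign in at least 1 fit. For Edn3 at 1441924_x_at the difference was 0.10 without wild type replicate 3 and 0.41 without wild type replicate 2, and for Ednrb at 1437347_at 0.17 and 0.43. Of 179 list genes 0 passed on group alone. With array weights 2 were higher, Cebpd and Osmr, with the replicate block 1 (Cebpd), without both arrays of replicate 3 also 1 (Cebpd), and when each gene's probe sets were averaged 1 (Socs3). With an unadjusted p under 0.05 there were 32 higher and 5 lower. With the block 0 endothelin probe sets passed the adjusted threshold, and 3 in place of 2 had an unadjusted p under 0.05. List medians without wild type replicate 3, an alternative chosen after seeing the data, were 0.76 for glial response, 0.66 for pigment epithelium and 0.23 for lens genes.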
